A study of Mus musculus with 12 samples.

Results

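The 10 genes described here are *Notch1*, the receptor whose intracellular domain (NICD) was expressed from a transgene, its nuclear partners *Rbpj* and *Maml1*, the Deltex genes *Dtx2* and *Dtx4*, and the target genes *Hes1*, *Hey1*, *Hey2*, *Heyl* and *Nrarp*. They were chosen by name, for their place in the Notch pathway, from the 54658 gene names counted by RNA sequencing in the murine left atrium (LA). The choice was made with earlier results of these data known. There were 6 iNICD mice, which carried *αMHC-rtTA* and *tetO_NICD*, and 6 littermate controls with *αMHC-rtTA* alone. In iNICD mice the αMHC promoter drives a tetracycline-dependent transactivator in cardiomyocytes, which switches on NICD when doxycycline is given. Both groups ate doxycycline chow for 3 weeks with no washout, starting at 2 to 3 months of age, so the transactivator and the drug were common to both and the *tetO_NICD* allele was not. The controls were 4 females and 2 males, the iNICD mice were 3 females and 3 males, and each LA was sequenced as a library of its own. The question put to these libraries was how the LA transcriptome responds when Notch is activated in cardiomyocytes.

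Notch is a cell-surface receptor that is cut when it binds a ligand on a neighboring cell. The freed NICD moves to the nucleus and binds RBPJ, a DNA-binding protein that represses its targets in the absence of NICD, and Mastermind-like proteins such as MAML1 join the complex and recruit coactivators. The best-known direct targets encode the basic helix-loop-helix (bHLH) repressors of the Hes and Hey families and NRARP, a small ankyrin-repeat protein that destabilizes NICD and so acts as feedback. Deltex proteins are E3 ubiquitin ligases that bind the intracellular part of Notch. In the heart, Hey factors help set chamber identity, with *Hey2* a gene of the ventricles and *Hey1* of the atria.

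The promoters of 2 targets are shown because these genes were the extremes of the response: *Nrarp* rose the most of the 5 target genes and *Hey2* was the target that did not pass the test. Promoters, the 250 bases before an annotated start, were read from a set of RefSeq promoters on GRCm38.p6. The set used here held 6 of the 10 genes (*Notch1*, *Rbpj*, *Maml1*, *Dtx2*, *Hey2* and *Nrarp*). *Dtx4*, *Hes1*, *Hey1* and *Heyl* were not in that set, although they are annotated on the same build, so their promoters were not read. Both sequences run 5′ to 3′ on the strand of the gene. Capitals mark the RBPJ core TGGGAA, read on either strand (TTCCCA on the other), and the palindromic E box CACGTG, a sequence of the kind that bHLH proteins bind. The *Nrarp* window is chr2:25180508-25180757 on the plus strand, and the *Hey2* window is chr10:30842802-30843033 on the minus strand, 232 bases, since the 18 bases nearest the start lie in an annotated exon of the gene.
Nrarp: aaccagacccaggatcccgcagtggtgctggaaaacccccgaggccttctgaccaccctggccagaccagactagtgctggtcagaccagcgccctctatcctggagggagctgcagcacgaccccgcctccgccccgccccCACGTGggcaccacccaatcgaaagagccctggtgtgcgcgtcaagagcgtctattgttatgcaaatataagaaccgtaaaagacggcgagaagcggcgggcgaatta
Hey2: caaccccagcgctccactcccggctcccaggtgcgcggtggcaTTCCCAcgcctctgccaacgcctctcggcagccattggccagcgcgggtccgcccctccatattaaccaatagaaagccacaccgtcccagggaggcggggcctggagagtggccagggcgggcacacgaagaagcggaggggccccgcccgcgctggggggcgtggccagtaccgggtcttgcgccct

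The RBPJ core was absent from the *Nrarp* window, which held the E box at 108 to 103 bases before the start. The *Hey2* window held the core as TTCCCA, on the strand opposite to the gene, 207 to 202 bases before the start. Of the other 4 genes in the promoter set, *Rbpj* held 2 matches to the core, *Dtx2* held 1, and *Notch1* and *Maml1* held 0. The core occurred in 7094 of 32851 mouse promoters of this length (21.6%) and the E box in 1978 (6.02%). A window without the letters says nothing of sites elsewhere.

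Library totals lay between 21432632 and 27182038 counts. Levels are normalized CPM, counts per 1000000 after scaling by the trimmed mean of M values (TMM). Changes are log2 fold changes, iNICD over control, from the quasi-likelihood test of edgeR, with p-values adjusted by Benjamini-Hochberg over all 13541 genes tested and a threshold of 0.05. A total of 558 genes passed (4.12%), 377 of them higher in iNICD (2.78%) and 181 lower (1.34%), and the median log2 fold change of all tested genes was -0.01. Control replicate 5 stood apart from the other libraries, with a TMM factor of 0.863 against 0.974 to 1.06, and without it the number of genes that passed was 799. The atrial genes *Myl7*, *Myl4*, *Nppa* and *Sln* were present in all 12 libraries, with 58056 to 123388 counts for *Myl7*. Of the ventricular genes, *Irx4* was at 0 counts in all libraries, *Myl2* had 5 to 73 and *Myl3* 19 to 77, so a low level of ventricular transcripts was counted.

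Of the 10 genes, 5 were higher in iNICD LA (*Notch1*, *Hes1*, *Hey1*, *Heyl* and *Nrarp*), 0 were lower, and 5 did not pass the test (*Rbpj*, *Maml1*, *Dtx2*, *Dtx4* and *Hey2*). All 10 had enough reads to be tested. The same 5 genes were those in which every iNICD library exceeded every control, a pattern found in 350 of the 13541 tested genes (2.58%). The opposite, every iNICD library below every control, occurred in 169 tested genes (1.25%) and in 0 of the 10, so that 5 of the 10 genes had groups without overlap, against 519 tested genes in either direction (3.83%). The median log2 fold change of the 10 genes was 0.97, and 8 of the 10 values were above 0, beside 6590 of all 13541 tested genes.

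**Figure D1:**
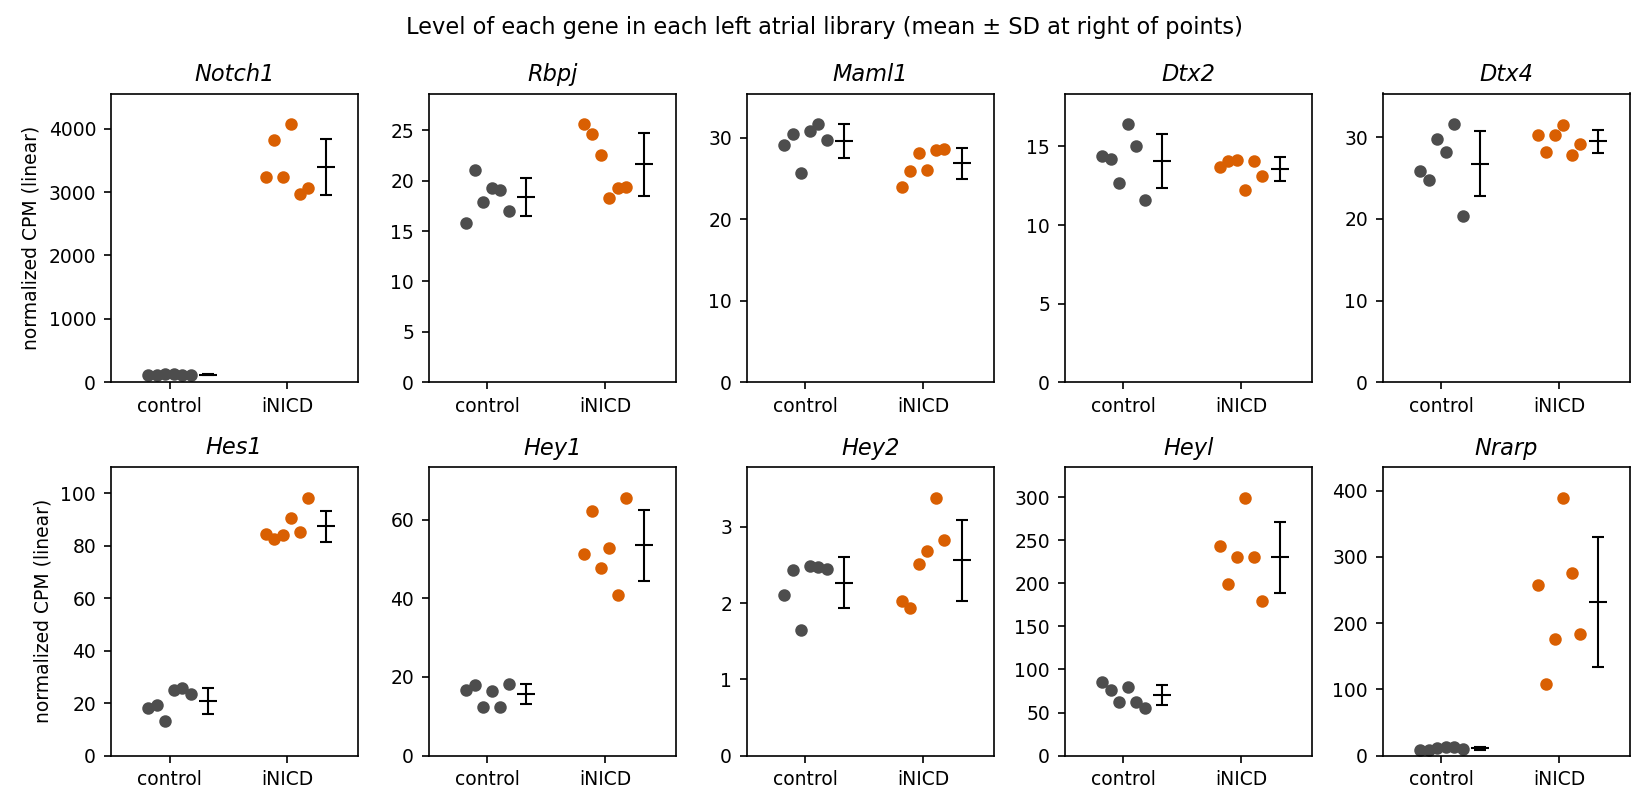
Level of each of the 10 genes in each library, as normalized CPM on a linear axis that starts at 0, with 6 control points in gray and 6 iNICD points in orange and the mean ± SD beside them. The groups are separate for *Notch1*, *Hes1*, *Hey1*, *Heyl* and *Nrarp* and overlap for *Rbpj*, *Maml1*, *Dtx2*, *Dtx4* and *Hey2*.

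*Notch1* lies at chr2:26457903-26516663 on the minus strand (GRCm38). Its level in the controls ran from 108.2 to 130.5 normalized CPM with a median of 114.7, and in the iNICD libraries from 2969 to 4069 with a median of 3238. All 6 iNICD libraries were far above the controls, by 28.9-fold (log2 fold change 4.85, SE 0.11, edgeR adjusted p = 3.03e-11), from 118 ± 9.99 to 3401 ± 441 (SD, n = 6 per group). It had the lowest p of all tested genes, rank 1, and rank 6 by log2 fold change. In counts, the controls had 2335 to 3311 reads and the iNICD libraries 71187 to 107667. *Notch1* alone took 0.289% to 0.405% of all reads in iNICD libraries, against 0.00941% to 0.0134% in controls, which moved it from rank 1250 to 1755 among all gene names to rank 19 to 26. The transgene encodes part of the same sequence, and a count per gene does not tell its reads from those of the endogenous receptor. How much of the rise came from each was not tested. Genes on the opposite strand within *Notch1* stayed at low counts, 24 to 32 in controls and 24 to 39 in iNICD libraries for 0610009E02Rik.

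Neither nuclear partner passed the test. *Rbpj* (chr5:53466152-53657362, plus strand) ran from 15.78 to 21.1 normalized CPM in the controls, median 18.49, and from 18.25 to 25.58 in the iNICD libraries, median 20.96. The groups overlapped, with 3 iNICD libraries above all controls, and these were the 3 females. The log2 fold change was 0.23 (SE 0.10, 95% confidence interval 0.01 to 0.46), with an edgeR adjusted p of 0.253, although the unadjusted value was under the threshold. Reads of the *Rbpj-ps3* pseudogene, which resembles *Rbpj*, numbered 1 to 37 in controls and 3 to 39 in iNICD libraries, against 368 to 631 for *Rbpj*, and reads that the counting could have split between them are uncertain.

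*Maml1* (chr11:50255634-50292311, minus strand) had 25.68 to 31.62 normalized CPM in the controls, median 30.05, and 23.92 to 28.58 in iNICD, median 27.1. A single iNICD library was below all controls and the others lay within their range. Its log2 fold change was -0.14 (SE 0.07, interval -0.28 to 0.01, edgeR adjusted p = 0.309), and the exact permutation test of its levels alone, unadjusted and two-sided, gave p = 0.0411. For both partners the interval leaves out a doubling of the messenger RNA.

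Neither Deltex gene passed the test. *Dtx2* (chr5:135994800-136032872, plus strand) ran from 11.59 to 16.4 normalized CPM in the controls, median 14.3, and from 12.24 to 14.13 in iNICD libraries, median 13.89. The iNICD libraries lay wholly within the control range, and the log2 fold change was -0.05 (interval -0.24 to 0.14, edgeR adjusted p = 0.803). *Dtx4* (chr19:12466338-12501454, minus strand) ran from 20.37 to 31.57 in the controls, median 27.02, and from 27.82 to 31.48 in iNICD libraries, median 29.69. Here too the iNICD libraries lay within the control range, and the log2 fold change was 0.14 (interval -0.06 to 0.34, edgeR adjusted p = 0.465). The *Dtx4* to *Dtx2* ratio within a library was higher in iNICD by 0.20 on the log2 scale, a difference that did not pass an exact permutation test (two-sided p = 0.0628, adjusted over 6 ratios 0.0942). Without control replicate 3 it was 0.26, with an adjusted p of 0.0195 in that exact test.

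The target genes fell into a group of 4 that rose and *Hey2*, which did not pass. *Nrarp* (chr2:25180758-25183339, plus strand), whose promoter is printed above, had 8.715 to 13.76 normalized CPM in the controls, median 10.69, and 108.0 to 389.2 in iNICD libraries, median 220.3. The lowest iNICD library was thus far above the highest control, and the mean went from 11.1 ± 2.22 to 231.5 ± 98.1 (SD, n = 6). The log2 fold change of *Nrarp* was 4.39 (SE 0.29, interval 3.76 to 5.02, edgeR adjusted p = 1.61e-06), rank 9 among all tested genes. *Nrarp* differed by 3.6-fold between the highest and the lowest iNICD library, the widest range of the 10 genes. The antisense gene Gm38287, which overlaps it, had 0 to 5 counts in controls and 5 to 19 in iNICD libraries, against 211 to 349 and 2455 to 10298 for *Nrarp*.

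*Hes1* (chr16:30064384-30067796, plus strand), a bHLH repressor and the classical Notch target, had 13.38 to 25.6 normalized CPM in the controls, median 21.37, and 82.47 to 98.22 in iNICD libraries, median 84.82. The groups did not overlap, and the mean rose 4.20-fold, from 20.8 ± 4.79 to 87.5 ± 5.90 (log2 fold change 2.07, SE 0.14, edgeR adjusted p = 1.82e-06). The iNICD libraries were close together, with a coefficient of variation of 6.74% against 23.0% in the controls. This was the reverse of *Nrarp*, whose coefficient of variation was 42.4% in iNICD and 20.1% in controls. These spreads are given without a test.

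*Hey1* (chr3:8663359-8667256, minus strand), the atrial member of the Hey family, had 12.26 to 18.1 normalized CPM in the controls, median 16.68, and 40.92 to 65.51 in iNICD libraries, median 52.13. Every iNICD library was above every control, and the level rose 3.41-fold (log2 fold change 1.77, SE 0.14, edgeR adjusted p = 5.58e-06). *Heyl* (chr4:123233556-123249875, plus strand), another member of that family, known from smooth muscle and vessels, had 55.14 to 85.75 in the controls, median 69.42, and 179.6 to 299.0 in iNICD libraries, median 230.8. It too showed no overlap and rose 3.27-fold (log2 fold change 1.71, SE 0.14, edgeR adjusted p = 6.85e-06).

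*Hey2* (chr10:30832359-30842801, minus strand), the ventricular member, was low throughout, at 1.651 to 2.483 normalized CPM in the controls, median 2.439, and 1.936 to 3.378 in iNICD libraries, median 2.598. The groups overlapped, although 4 iNICD libraries were above all controls, and the log2 fold change was 0.18 (SE 0.17, interval -0.19 to 0.54, edgeR adjusted p = 0.63). Its 40 to 66 counts per control library and 44 to 81 per iNICD library limit the precision, and the interval reaches from a 0.877-fold to a 1.46-fold level. In females alone its log2 fold change was slightly below 0, at -0.004. For the 5 genes that rose, the exact permutation test of each gene's levels gave p = 0.00216, unadjusted and two-sided, which is the smallest that 6 against 6 libraries can give. This value follows from the lack of overlap given above and adds nothing to it. All 5 passed edgeR in each of 12 fits that left out a library in turn, with log2 fold changes without control replicate 5 of 4.83 for *Notch1*, 4.45 for *Nrarp*, 2.14 for *Hes1*, 1.71 for *Hey1* and 1.68 for *Heyl*.

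**Figure D2:**
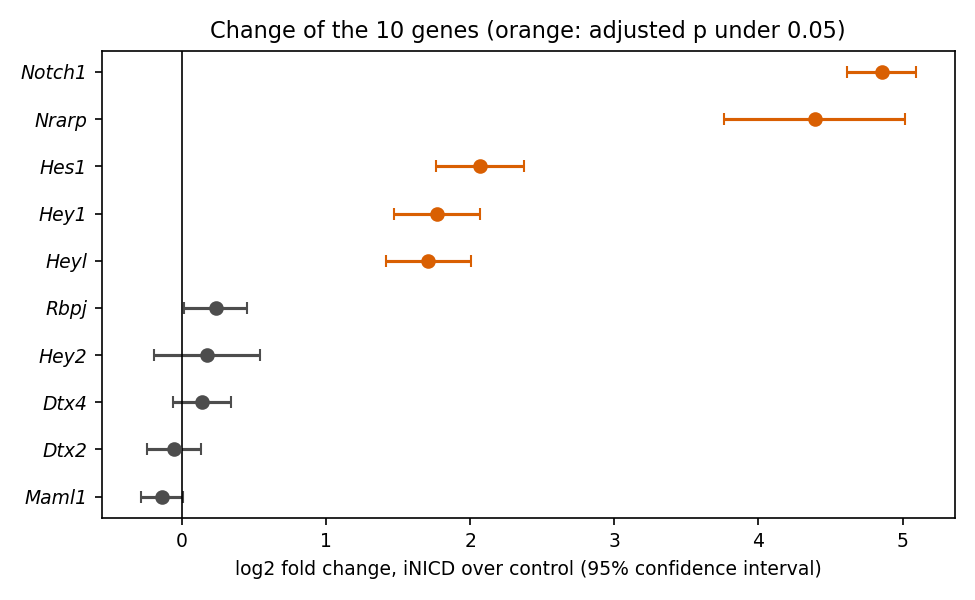
Log2 fold change of the 10 genes, iNICD over control, with 95% confidence intervals from the edgeR fit on 6 libraries per group; orange marks an adjusted p under 0.05. *Notch1* (4.85) and *Nrarp* (4.39) lie far to the right, *Hes1*, *Hey1* and *Heyl* between 1.71 and 2.07, and the other 5 genes near 0.

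The size of the response differed between targets. Ratios of 2 genes within a library do not depend on how libraries are scaled to each other, and 6 such ratios were compared between groups by exact permutation over 924 assignments, two-sided, with adjustment over the 6. The *Hey1* to *Hey2* ratio was 2.77 ± 0.24 (SD, n = 6) on the log2 scale in the controls and 4.38 ± 0.47 in iNICD, a difference of 1.61 (exact p = 0.00216, adjusted 0.00433). The *Heyl* to *Hey2* ratio differed by 1.55 (same exact p and adjusted p). The change in *Hey2* was thus smaller than that in its family members. The *Nrarp* to *Hes1* ratio was -0.90 ± 0.35 in controls and 1.29 ± 0.62 in iNICD, a difference of 2.20 with the same exact p. *Nrarp* was thus the scarcer of these 2 in every control (log2 ratios -1.23 to -0.24) and the more abundant in every iNICD library (0.39 to 2.11), as levels in normalized CPM and not per length.

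No difference was detected in the *Hey1* to *Heyl* ratio. On the log2 scale it was -2.17 ± 0.29 in controls and -2.11 ± 0.44 in iNICD, a difference of 0.06 (exact permutation p = 0.838), with a sign that turned when iNICD replicate 2 (-0.03) or iNICD replicate 6 (-0.07) was left out. The *Hes1* to *Hey1* ratio was higher in iNICD by 0.33, which did not pass (exact permutation p = 0.0931, adjusted 0.112). Without control replicate 5, the library that stood apart, this difference was 0.46 with an adjusted p of 0.0162 in the same exact test.

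Per kilobase of gene model, the order of the genes could be compared. In the controls the mean levels, in normalized CPM per kilobase, were 13.8 for *Heyl*, 10.2 for *Hes1*, 8.27 for *Notch1*, 5.35 for *Maml1*, 4.80 for *Hey1*, 4.64 for *Dtx4*, 4.28 for *Nrarp*, 2.00 for *Dtx2*, 1.44 for *Rbpj* and 0.493 for *Hey2*. Neighbors in this order had overlapping ranges over the 6 libraries except *Notch1* over *Maml1*, *Nrarp* over *Dtx2* and *Rbpj* over *Hey2*. In iNICD the order began with *Notch1* at 239, *Nrarp* at 89.7, *Heyl* at 45.0, *Hes1* at 42.9 and *Hey1* at 16.4, followed by *Dtx4* at 5.12, *Maml1* at 4.85, *Dtx2* at 1.93, *Rbpj* at 1.69 and *Hey2* at 0.557. The ranges of *Notch1* and *Nrarp*, *Hes1* and *Hey1*, *Hey1* and *Dtx4*, *Maml1* and *Dtx2*, and *Rbpj* and *Hey2* were separate, and the other neighbors overlapped.

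*Nrarp* thus moved from the seventh place to the second, and from the 45.8th percentile of all tested genes to the 97.4th. *Hes1* went from the 70.7th to the 94.1st, *Heyl* from the 77.6th to the 94.4th, and *Hey1* from the 49th to the 81.6th, while *Hey2* stayed at the 6.9th and 7.25th. The per-length level of *Notch1* in iNICD is divided by the whole gene model of 14232 bases, although NICD is only part of the receptor, so it cannot be set against the other genes in the way the control level can. Reads of *Rbpj* are likewise spread over a model of 12750 bases, against 2037 for *Hes1* and 2582 for *Nrarp*.

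**Figure D3:**
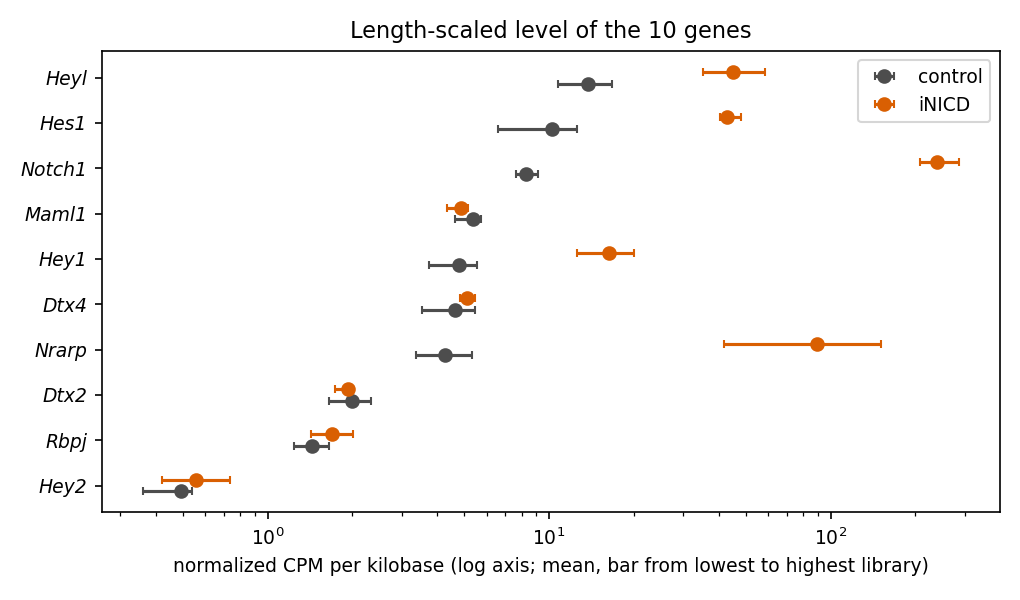
Mean level of each gene in normalized CPM per kilobase on a log axis, with a bar from the lowest to the highest of the 6 libraries, gray for control and orange for iNICD, ordered by the control mean. *Nrarp* rises past *Heyl*, *Hes1* and *Hey1*, from 4.28 to 89.7, while *Hey2* stays lowest at 0.493 and 0.557.

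The response was compared between the sexes. The sex by genotype term passed for 0 of the 10 genes (edgeR lowest adjusted p = 0.916, 0 genes at an unadjusted p under 0.05, and 0 by DESeq2). The largest differences between the sexes were in *Nrarp*, where the male fold change exceeded the female by 0.51 on the log2 scale (SE 0.50), and *Heyl*, by 0.45 (SE 0.26), and in *Rbpj* the female fold change was larger by 0.32 (interaction -0.32, SE 0.16). In *Rbpj* the female means were 18.5 in controls and 24.2 in iNICD, and the male means 18.1 and 19.0. The smallest difference these libraries could have detected was not computed. The fit without control replicate 6, in which the remaining male control is assumed to vary like the other groups, called 0 of the 10 genes and 1636 genes of the whole table, against 0 with all libraries and 0 without control replicate 5, which also leaves a single male control.

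Within the 6 iNICD libraries, *Notch1* ranged 1.37-fold between the lowest and the highest, and none of the other 9 genes was correlated with it by an exact permutation test (0 of 9 at an adjusted or an unadjusted p under 0.05, two-sided). For *Heyl* Pearson's r was 0.466 (exact permutation p = 0.358, adjusted 0.677) and Spearman's rho 0.314 (p = 0.564). For *Hey1* r was 0.352 (exact permutation p = 0.481, adjusted 0.721), with rho 0.314 (p = 0.564). *Hes1* had r = -0.136 (exact permutation p = 0.843, adjusted 0.974) and rho -0.314 (p = 0.564), and *Nrarp* had r = 0.0344 (exact permutation p = 0.953, adjusted 0.974) and rho -0.0857 (p = 0.919). Without the 2 libraries farthest from the *Notch1* median, iNICD replicates 4 and 2, r was 0.354 for *Heyl*, 0.191 for *Hey1*, -0.329 for *Hes1* and -0.371 for *Nrarp*. Over the same 4 libraries it was 0.986 for *Dtx4*, -0.906 for *Hey2*, 0.874 for *Rbpj*, -0.585 for *Maml1* and 0.0929 for *Dtx2*, values given without a test, so the relations of *Dtx4*, *Hey2* and *Rbpj* with *Notch1* moved strongly with the choice of libraries. The 6 controls likewise gave 0 of 9, with the lowest exact permutation p at 0.25 for Pearson's r (*Hey2*) and 0.136 for Spearman's rho (*Heyl*, rho 0.714).

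**Figure D4:**
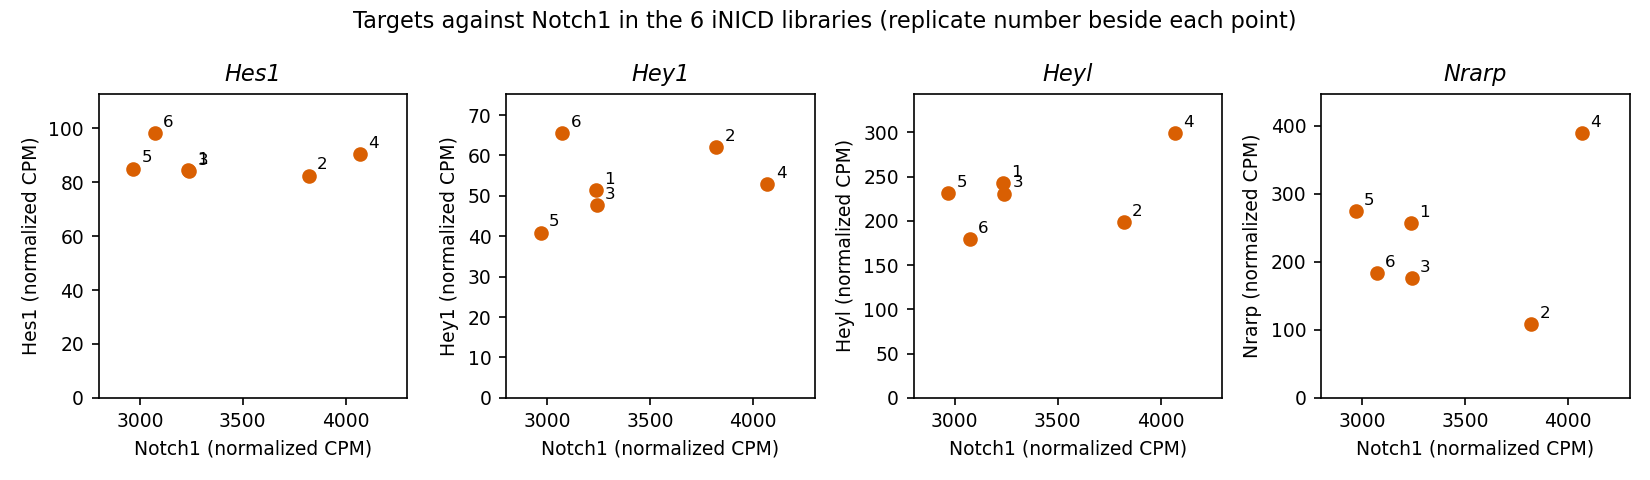
Level of *Hes1*, *Hey1*, *Heyl* and *Nrarp* (y axes, normalized CPM) against *Notch1* (x axis, normalized CPM) in the 6 iNICD libraries, numbered by replicate. Replicate 4, the highest in *Notch1* at 4069, is also the highest in *Nrarp* (389.2) and *Heyl* (299.0), but replicate 2, the next in *Notch1* at 3821, is the lowest in *Nrarp* (108.0).

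Over all 12 libraries, the genes with the pattern most like *Notch1* by Pearson's r of log2 levels were AW011738 (0.995), *Lrrc8e* (0.994), Gm11716 (0.988), *Pla2g3* (0.988) and *Nup62cl* (0.987). Among the target genes, *Nrarp* came at rank 13 (0.978), *Heyl* at 18 (0.971), *Hes1* at 21 (0.970), *Hey1* at 27 (0.967) and *Hey2* at 3731 (0.289). The high values describe the difference between the groups, which all of these genes except *Hey2* share. After each value was centered on its group mean, the nearest genes were different, *Ankrd50* (0.859), *Eps8* (0.854), *Btbd11* (0.843), 8430422M14Rik (0.822) and *Acp1* (0.820), and the target genes had 0.429 (*Heyl*), 0.108 (*Hey1*), 0.104 (*Nrarp*), -0.247 (*Hes1*) and -0.485 (*Hey2*). The 12 points share library depth and are described without a test.

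*Nrarp* and *Notch1* lie 1.27 Mb apart on chromosome 2, and the genes between them were compared as their neighbors. Of 88 annotated genes in this interval 43 were tested, and 0 passed in edgeR, beside 4.12% of all tested genes. At an unadjusted p under 0.05 in edgeR there were 4 of 43, beside 2358 of all tested genes (17.4%), and DESeq2 called 2, beside 1059 of all tested genes (7.82%). Their median log2 fold change was -0.04, and they ran from -0.84 (*Ptgds*) to 0.26 (*Ubac1*), with 14 of 43 above 0, beside 6590 of all 13541 tested genes.

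The wider Notch pathway was described with 7 lists of genes by role, 77 genes in all, of which 70 were tested and 3 changed: *Notch2* rose, and *Id1* and *Id3* fell. This is 3 of 70 beside 4.12% of all tested genes, and counts at an unadjusted p under 0.05 in these lists stand beside 17.4%. The Id genes were listed with the bHLH repressors, although they encode proteins without a basic region. The RBPJ coactivators, histone acetyltransferases and their partners, had 0 of 8 changed, from *Snw1* (-0.03) to *Maml2* (0.32), with a median log2 fold change of 0.02 (1 gene at an unadjusted p under 0.05 in edgeR, 0 by DESeq2). The corepressors of RBPJ and of Hes and Hey proteins had 0 of 17 changed, from *Rita1* (-0.17) to *L3mbtl3* (0.45, edgeR adjusted p = 0.0529), with a median of 0.08 (2 genes at an unadjusted p under 0.05). *L3mbtl3*, which encodes a partner through which RBPJ represses targets, was the 1 gene of this list that passed in DESeq2 (adjusted p = 0.0101), and it also passed in the edgeR exact test (0.0208), with sex as a covariate (0.00261) and in females only (0.0442).

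Genes for NICD turnover and endocytosis, such as ubiquitin ligases and *Numb*, had 0 of 13 changed, from *Cdk8* (-0.11) to *Dtx1* (0.29), with a median of -0.01 (1 gene at an unadjusted p under 0.05 and 1 by DESeq2). Genes for the cleavage and glycosylation of Notch had 0 of 11 changed, from *Pofut1* (-0.08) to *Aph1b* (0.48), with a median of 0.09 (2 genes at an unadjusted p under 0.05 and 1 by DESeq2). *Aph1b*, which encodes a subunit of the γ-secretase that frees NICD, had 16.0 ± 3.29 normalized CPM in controls and 22.4 ± 1.90 in iNICD without overlap, and missed the threshold (edgeR adjusted p = 0.0629). It passed in DESeq2 (0.0117), in the edgeR exact test (0.0215), with sex as a covariate (0.0375) and in females only (0.0451). Among the Deltex genes outside the 10, *Dtx3* also showed no overlap, at a log2 fold change of 0.16 (edgeR adjusted p = 0.073, DESeq2 0.00386).

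Of the other Notch receptors, *Notch2* had 64.46 to 86.16 normalized CPM in the controls, median 76.99, and 99.7 to 112 in iNICD libraries, median 104.8. The groups were separate, and the level rose 1.37-fold (log2 fold change 0.46, SE 0.07, edgeR adjusted p = 0.00318), a call that held in 12 of 12 fits leaving out a library. *Notch3* (-0.14, edgeR adjusted p = 0.673) and *Notch4* (-0.37, adjusted p = 0.188) did not pass.

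The list of other Hes genes, bHLH repressors and Id genes had 7 of 12 tested and 2 lower, beside 1.34% of all tested genes, with a median log2 fold change of -0.28. Both lower genes were Id genes, and *Hes6*, *Bhlhe40* and *Bhlhe41* did not pass. *Hes2*, *Hes3*, *Hes5*, *Hes7* and *Helt* were too low to test. *Id1* and *Id3* encode helix-loop-helix proteins without a basic region, which bind bHLH factors and keep them from DNA. They are well-known targets of BMP signaling. *Id1* had 12.85 to 32.48 normalized CPM in the controls, median 20.62, and 7.094 to 17.27 in iNICD libraries, median 11.82, with 4 iNICD libraries below all controls (log2 fold change -0.95, SE 0.24, edgeR adjusted p = 0.0411). *Id3* had 40.13 to 55.78, median 46.94, and 31.18 to 42.07, median 34.67, with 5 iNICD libraries below all controls (-0.42, SE 0.10, edgeR adjusted p = 0.0271). Both calls were lost when certain single libraries were left out, in females only (edgeR adjusted p = 0.131 for *Id1* and 0.223 for *Id3*) and in males only (0.73 and 0.629). *Id1* passed only in the fits without control replicate 1 (adjusted p = 0.0194) and without iNICD replicate 5 (0.0274), and its adjusted p reached 0.0976 among the other 10. *Id3* passed in 5 of 12, the exceptions being those without control replicates 2 and 4 and iNICD replicates 1, 3, 4, 5 and 6, where the adjusted p lay between 0.0506 and 0.0676.

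Genes known as Notch targets from other tissues, such as *Myc*, *Ccnd1* and *Gata3*, had 0 of 12 changed, with a median of -0.22 and 1 value of 12 above 0 (beside 6590 of all 13541 tested genes), from *Cdkn1a* (-0.97, edgeR adjusted p = 0.402) to *Snai2* (0.19). In this list 0 genes had an unadjusted p under 0.05 in edgeR and 0 passed in DESeq2. *Notch3* belongs to this list as well. *Ptcra*, a gene of developing T cells, was not tested.

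**Figure D5:**
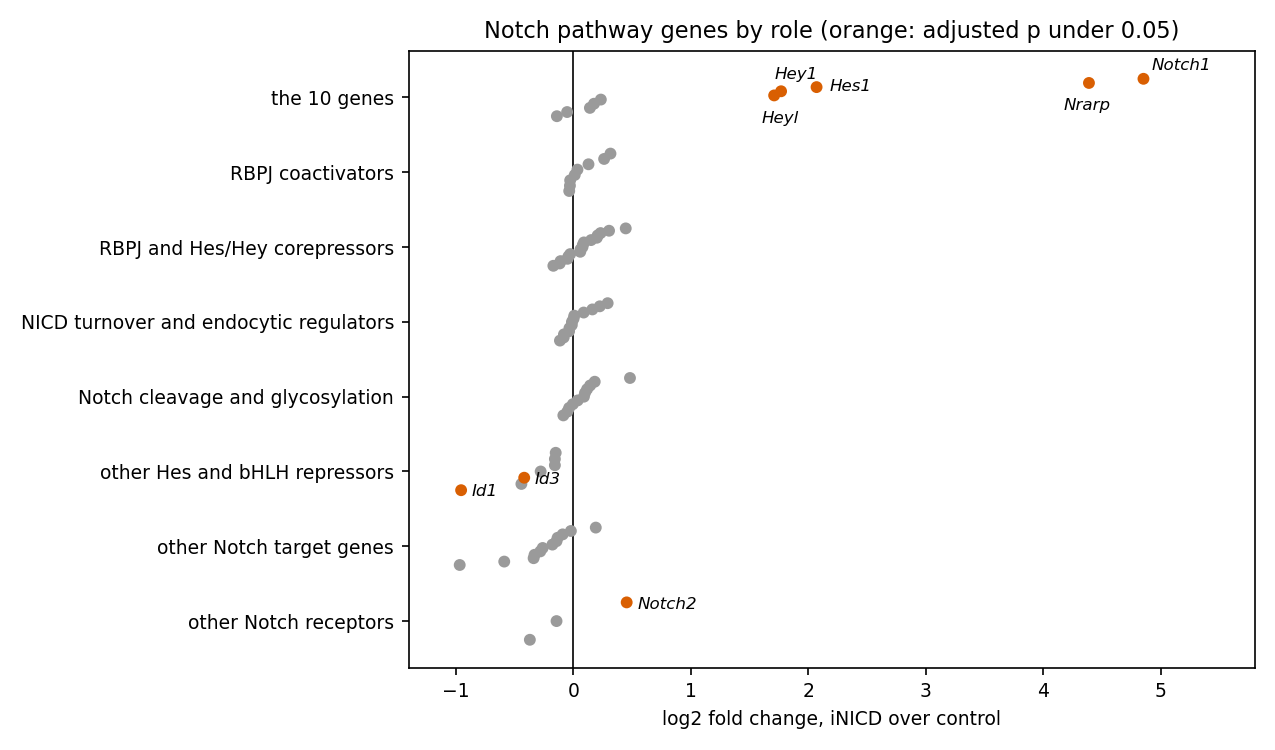
Log2 fold change, iNICD over control, of each tested gene of the Notch pathway, in rows by role; orange marks an adjusted p under 0.05 and gray the rest, and the height within a row only separates the points. Outside the 10 genes in the top row, *Notch2* (0.46) lies to the right and *Id1* (-0.95) and *Id3* (-0.42) to the left, and the other rows hold no orange points. The row of *Id1* and *Id3* joins Id genes with Hes genes and bHLH repressors.

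Several of the 10 genes are active in more than 1 cell type of the LA, and in bulk tissue fewer cells of a type and less RNA per cell cannot be told apart. In edgeR the markers of other cell types did not pass: 0 of 8 endothelial genes, 0 of 8 of smooth muscle and pericytes, 0 of 7 of fibroblasts, 0 of 6 of leukocytes and 0 of 5 of the epicardium. With 4.12% of all tested genes called, lists of this size would often hold 0. At an unadjusted p under 0.05 there was 1 endothelial gene and 1 fibroblast gene, beside 17.4% of all tested genes, and DESeq2 called 1 endothelial gene, *Egfl7*, which was lower in iNICD (-0.26 in edgeR). Values above 0 numbered 1 of 8 for endothelium (median -0.13) and 0 of 5 for epicardium (median -0.30). They numbered 4 of 8 for smooth muscle and pericytes, 5 of 7 for fibroblasts and 5 of 6 for leukocytes. Of all 13541 tested genes, 6590 were above 0. These directions were not tested. The summed levels of these lists overlapped between the groups, at 913 to 1276 normalized CPM in controls and 861 to 1019 in iNICD for endothelium and 451 to 855 and 498 to 717 for smooth muscle and pericytes. For the epicardium they were 209.9 to 278.6 in controls and 134.6 to 258.5 in iNICD. None of these marker genes was at 0, with *Pecam1* at 216.5 to 402.2 in controls and 206.6 to 263.6 in iNICD. Genes of atrial cardiomyocytes, the cells that carry the active transgene, had 5 of 8 lower (*Myl7*, *Myl4*, *Nppa*, *Sln* and *Tnnt2*), beside 1.34% of all tested genes, and the summed level of the 8 was 48264 to 60034 normalized CPM in controls and 20526 to 28250 in iNICD. Most of this fall was in *Nppa*: without it the other 7 genes summed to 26099 to 29842 in controls and 17753 to 22612 in iNICD. *Nppa*, atrial natriuretic peptide, fell by 2.33 on the log2 scale (edgeR adjusted p = 0.000339), and *Tnnt2*, cardiac troponin T, fell by 0.44 (adjusted p = 0.0153), while *Actn2*, *Ryr2* and *Pln* did not pass. The part of these changes in the levels of the 10 genes was not tested.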

How the data were processed

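RNA of 12 left atria, 6 iNICD and 6 control, was depleted of ribosomal RNA and sequenced by the authors as stranded single-end reads of 50 bases. The deposited values are raw counts of reads per gene name, without normalization. The authors' tools, per the labels, were cutadapt, STAR 2.4.2a, Subread featureCounts and edgeR on mm10. The paper's supplement also gives a second route, and which of them made the table, and whether strand was used in counting, is not given in the sources used here. The deposited table also holds a length in bases per gene name, a unit of its own, used for levels per kilobase. It equaled the exon union of GENCODE M21 for 9 of the 10 genes (not *Dtx4*). Positions are from GENCODE M21 on GRCm38. Every value column matched a sample.

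Groups were taken from the labeled genotype, and each library is a separate animal. No library was a copy of another of its group (lowest chi-square per gene 15.35), and pairs across the groups were not compared. Genes with CPM over 1 in at least 6 libraries entered the edgeR 4.0.16 quasi-likelihood fit (R 4.3.3) after TMM scaling, two-sided. The supplement names DESeq2 for the LA and the exact test of edgeR for its comparison of the atria, and both were run here as alternatives. Intervals of 95% and SE come from this fit. Ratios used a prior of 0.5 counts, and permutation tests ran in Python 3.11.15 with numpy 2.4.6 and scipy 1.17.1. DESeq2 was version 1.42.0. Further alternatives were other scalings and filters, a replicate block, a term for sex, either sex alone, the table without its 37 mitochondrial genes, and each library left out. The 10 genes and the lists were chosen with earlier results of these data known. Named are the 10 genes, changed genes of each list or else its lowest and highest, and the 5 genes most like *Notch1* by either measure. *L3mbtl3*, *Dtx3*, *Egfl7*, *Nppa* and *Tnnt2* and the genes given as examples were named after their values were seen. Depth sets the precision: 3 counts equal 0.110 to 0.140 CPM.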

Additional observations from a re-analysis of the deposited data

How the results depend on the processing

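The number of the 10 genes that passed was 5 under 11 of 12 other settings and in every fit that left out a library (5 to 5). It was 2 in males only, where 2 controls met 3 iNICD libraries: *Hey1* (1.79, edgeR adjusted p = 0.304), *Heyl* (1.99, 0.187) and *Nrarp* (4.57, 0.0799) kept their size and missed the threshold. *Hey2*, not called in any of these settings, turned to -0.004 in females only. The count of 3 changed pathway genes was 6 by DESeq2, 5 by the edgeR exact test, 5 with sex as a covariate, 0 in males only, and 1 to 3 with a library left out. Same-numbered libraries did not all deviate together (r of deviations from -0.162 to 0.357 by the titles, and from -0.100 to 0.357 by the descriptions, which exchange the numbers of controls 4 and 5), with 4 of 6 pairs over 0.1 under either numbering. The mice were littermates, but the labels tie no number to a litter or batch, so the numbers were not taken as pairs, and whether they carry a litter is not known. With that number as a replicate block the pathway count was 5, with *L3mbtl3* (adjusted p = 0.0162 in edgeR) and *Aph1b* (0.0455) added, or 4 by the description numbers, with *L3mbtl3* (0.0325) added, the number of the 10 genes that passed stayed at 5, 468 or 421 genes of the whole table passed, and the *Hes1* to *Hey1* ratio passed by exact sign flips (adjusted p = 0.0469). The 4 ratios that passed by sign flips share this adjusted p, with differences from 0.33 to 2.20. Each was at the lowest p that sign flips of 6 pairs can give. Of the whole table, 558 genes passed, against 1059 by DESeq2, 770 by the exact test, 395 in females, 8 in males and 374 to 799 with a library left out. The difference in the *Hey1* to *Heyl* ratio was -0.03 without iNICD replicate 2 and -0.07 without iNICD replicate 6, and ranged up to 0.17. The number of ratios that passed was 3 to 4. The cause of these differences was not tested.

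Depth limited *Hey2* (40 to 81 counts) and the genes under 1 CPM, such as *Hes5*, and the comparison of sexes had 2 male controls. None of the 20 sets of 6 values, the 10 genes in either group, held an outlying library by Dixon's criterion, where chance would give about 1.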
